A study of Drosophila melanogaster with 17 samples.

Results

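Heads and legs of adult Drosophila melanogaster that carried the same driver and the same ribosome tag were compared. In both tissues DIP-gamma-GAL4 drove UAS-Flag-GFP-RpL10, a tagged large-subunit ribosomal protein, and the RNA held by the tagged ribosomes was recovered with an anti-Flag antibody by translating ribosome affinity purification (TRAP). All head TRAP and leg TRAP samples were taken, 3 of each, which is 6 of the 17 samples of the series. The head samples came from 2 day old males, with the heads of 5 flies per sample, and the leg samples from the legs of 250 flies of the same age, male and female in equal number. The controls carried UAS-Flag-GFP-RpL10/+ without a driver, and 3 head and 2 leg controls were used as the background measured the same way. The authors had set aside another leg control for contaminating DNA.

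DIP-γ is a cell-surface immunoglobulin-domain protein of the DIP family, whose members bind the Dpr proteins on other neurons. The driver is a GAL4 insertion in the DIP-gamma gene and labels a restricted set of motor neurons (MNs) and other neurons. The cell bodies of leg MNs lie in the ventral nerve cord and send only axons and terminals into the leg, whereas the head holds the cell bodies, dendrites and axons of the DIP-γ neurons of the brain. In axons, local translation supplies proteins far from the cell body, and ribosomal proteins, mitochondrial proteins and cytoskeletal proteins are among the products it is known for.

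Several limits apply to all values. Tissue changed together with sequencing order, the sex of the flies and the number of flies per sample, so their parts in a difference cannot be told apart. The tag was also expressed without GAL4, and any cell of the head or leg that held tagged ribosomes could contribute RNA. In these bulk samples fewer labelled cells and less RNA per cell cannot be told apart. The p-values measure only the spread between these samples. Gene counts were scaled by the trimmed mean of M-values (TMM) over the 11 adult samples and are given as CPM, the counts relative to a library total of 1e6. Each comparison was tested with the edgeR quasi-likelihood test over all genes, and a gene was called at a Benjamini-Hochberg adjusted p under 0.05. Log2 fold changes are head over leg, so a positive value is a higher level in heads.

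Total counts were 29512310 to 35920704 in head TRAP and 65476259 to 79002113 in leg TRAP. The head libraries nevertheless reached more genes: 473 to 2484 genes had no count in a head TRAP library, against 4918 to 5349 genes in a leg TRAP library. The value of 473 was that of head TRAP 3, the head TRAP library with the fewest counts. Controls without a driver differed in the same direction, with 1931 to 3146 genes in head controls and 4143 to 4954 in leg controls. Across genes, which do not count as independent replicates, Pearson's r of log2 CPM was 0.930 to 0.961 between head TRAP samples, 0.955 to 0.961 between leg TRAP samples and 0.875 to 0.916 between the tissues. Some libraries stood apart in sex-linked transcripts. The yolk protein gene Yp1, expressed in female fat body and ovary, was at 0.631, 0.320 and 1.41 CPM in head TRAP and 1589, 2634 and 18.3 CPM in leg TRAP, and the male dosage compensation RNA roX1 was at 80.0, 131 and 302 CPM in head TRAP and 40.3, 3.06 and 62.4 CPM in leg TRAP. Leg TRAP 3 thus had little female-specific RNA and leg TRAP 2 little roX1, although both were labelled as equal mixtures of the sexes. In head TRAP, replicate 3 held the smallest share of pan-neuronal genes, as given below. Counts of called genes are therefore also given with each library left out.

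Of 16618 genes tested, 3095 were higher in head TRAP (18.6%) and 2324 were higher in leg TRAP (14.0%). Both shares are given as the background for every count below of list members called between head and leg TRAP, but they changed with level. Gene lists were not set against genes of their own level. All head samples lay above all leg samples for 4581 genes (27.6%) and all leg samples above all head samples for 3375 genes (20.3%). Most genes called higher in heads were under 10 CPM, and most called higher in legs were above it. Among the 5153 genes that stayed under 1 CPM in both tissues, 1019 were higher in heads (19.8%) and 1 in legs (0.0194%). Their median log2 fold change was 4.95. Of the 5902 genes with 10 to 100 CPM in the higher tissue, 18.9% were higher in heads and 22.4% in legs. Among the 1750 genes with at least 100 CPM in the higher tissue, 195 were higher in heads (11.1%) and 923 in legs (52.7%), with a median log2 of -0.72. A list of abundant genes can therefore pass 14.0% in legs without passing the share of genes of its level. A total of 3450 genes had no count in any leg TRAP library, with a median of 0.248 CPM in heads, and 1286 of them were called. Only 37 genes had no count in any head TRAP library. Without head TRAP 2 the genes higher in heads fell to 2027, and without head TRAP 1 they were 3836. With 1 library left out the genes higher in legs ranged from 1614 to 2385. Which direction had more calls depended on the genes admitted. With a count required in every sample, 1507 genes were higher in heads and 2402 in legs. Among genes with a group mean of at least 10 CPM these numbers were 1435 and 2431.

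**Figure D1:**
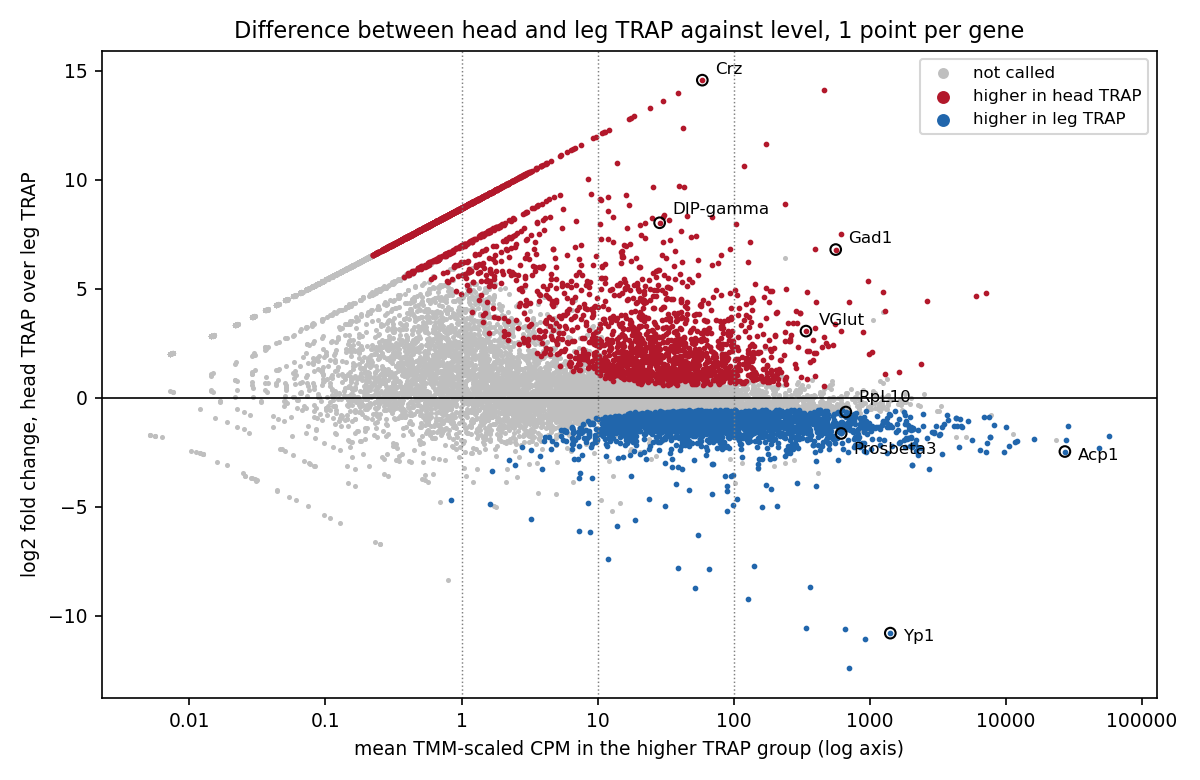
Log2 fold change of head over leg TRAP (vertical axis) against the mean TMM-scaled CPM in the higher TRAP group (horizontal, log axis), 1 point per gene tested, with calls at an adjusted p under 0.05 in red (3095 higher in heads) and blue (2324 higher in legs) and dotted lines at 1, 10 and 100 CPM. The rising straight lines at the top are genes with no or very few counts in leg TRAP, and at 100 CPM and above the called genes were mostly higher in legs.

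The scaling set where zero lay. The TMM factors were 1.23 to 1.57 for head TRAP and 0.805 to 0.830 for leg TRAP, and the genes tested had a median log2 fold change of 0.44, or 0.26 with genes lacking counts in a tissue set to their bound. With library size alone the median rose to 1.24, 6020 genes were higher in heads and 561 in legs, and 91.5% of the calls were higher in heads, against 57.1% with the main scaling. With TMM over the 6 TRAP samples alone that share was 68.8% and the median 0.68. Relative log expression scaling gave a median of 0.62. The direction of a group is therefore given below together with its median under library size alone wherever that median changed sign. Of the genes named below as higher in legs, Snap29, CNMa, tau, betaTub97EF, ATPsynC, vvl, Prosbeta5, Prosalpha3, Cpr65Au, Act79B, Eaat1, Tsf1, Fer1HCH, Adh, ppk23 and ppk29 kept their sign with library size alone but not their call, and RpL10, Nrg, Tctp, RpS3A and Dll changed sign.

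The driver gene and the neuronal genes used to follow MNs were higher in heads. DIP-gamma (chromosome arm 3R, 28925004 to 28970372, minus strand, BDGP6) was at 42.3, 34.4 and 8.87 CPM in head TRAP and 0.341, 0 and 0 CPM in leg TRAP. All head samples lay above all leg samples, and 2 of the 3 leg TRAP libraries held no DIP-gamma count, as did 1 of the 2 leg controls (log2 fold change 8.03, SE 1.19, adjusted p = 0.00127). Head controls held 0.335, 0.244 and 1.29 CPM of DIP-gamma, below every head TRAP sample. VGlut, the vesicular glutamate transporter that marks fly MNs (chromosome arm 2L, 2391660 to 2410662, plus strand), was at 529, 381 and 109 CPM in head TRAP and 36.2, 34.2 and 52.1 CPM in leg TRAP (log2 fold change 3.06, SE 0.50, adjusted p = 0.00198). Its leg TRAP values overlapped those of the leg controls, at 46.3 and 37.3 CPM, while every head TRAP value was above every head control, at 64.5, 59.8 and 53.1 CPM. The excess of TRAP over control for VGlut was larger in heads than in legs (interaction log2 2.55, SE 0.59, adjusted p = 0.0249), a call that was lost when any of 7 of the 11 samples was left out. Of 4 glutamatergic markers 1, VGlut, was higher in heads and 2 in legs (18.6% and 14.0% over all genes), with a median log2 of -0.78 and 0.03 with library size alone. The microtubule-associated protein gene futsch, the fly MAP1B, was at 348, 255 and 107 CPM in head TRAP and 39.0, 44.3 and 34.3 CPM in leg TRAP, with no overlap between the tissues (log2 fold change 2.59, SE 0.38, adjusted p = 0.00123).

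RpL10 and RpL10Ab, either of which could hold reads of the transgene (not tested), differed in direction. RpL10 was at 498, 445 and 324 CPM in head TRAP and 704, 713 and 582 CPM in leg TRAP and was higher in legs (log2 fold change -0.66, SE 0.22, adjusted p = 0.0449), but its log2 fold change was 0.12 with library size alone, and it kept its call only when head TRAP 1 was left out. RpL10Ab was at 3131, 3107 and 854 CPM in head TRAP and 861, 874 and 722 CPM in leg TRAP (log2 fold change 1.53, SE 0.42, adjusted p = 0.0222). Head TRAP 3 lay within the range of the leg samples for RpL10Ab and the other 2 head samples lay far above it. The RpL10Ab call was lost when any 1 leg TRAP sample was left out.

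**Figure D2:**
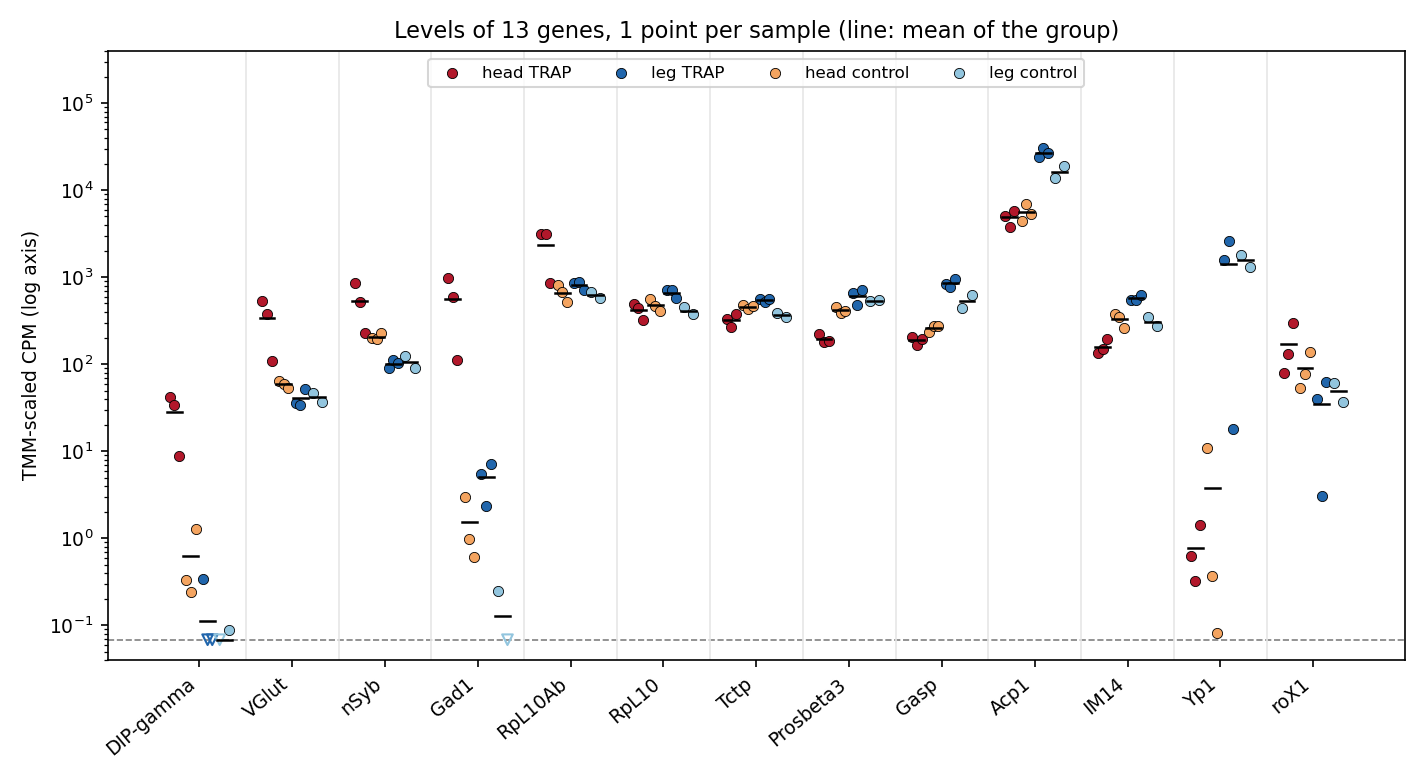
TMM-scaled CPM (vertical, log axis) of 13 genes in each sample of head TRAP, head control, leg TRAP and leg control, with the mean of each group as a line and samples under the level of 3 counts as open triangles on the dashed line at 0.0685 CPM. DIP-gamma, VGlut, nSyb and Gad1 were highest in head TRAP, Prosbeta3, Gasp, Acp1 and IM14 were higher in leg TRAP than in head TRAP, and Yp1 was low in leg TRAP 3.

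Pan-neuronal genes were more abundant in head TRAP almost throughout. Of 36 pan-neuronal genes tested, 31 were higher in heads (18.6% over all genes) and 1 in legs (14.0%), with a median log2 fold change of 1.88 against 0.44 for all genes tested. They took 1.21, 1.01 and 0.721% of the counts in the head TRAP samples and 0.214 to 0.224% in the leg TRAP samples. Leg TRAP was no richer in them than the leg controls, at 0.231 to 0.233%, whereas head controls held 0.322 to 0.436%. The number higher in heads was 29 to 32 when each TRAP library was left out in turn. The neuronal vesicle SNARE nSyb was at 858, 526 and 227 CPM in head TRAP and 89.8, 112 and 104.1 CPM in leg TRAP (log2 fold change 2.398, SE 0.41, adjusted p = 0.00249). No leg sample of nSyb reached a head TRAP sample. The sodium pump subunits Atpalpha (log2 1.16, adjusted p = 0.0131) and nrv3 (log2 1.98, adjusted p = 0.00437) were also higher in heads, as were the voltage-gated sodium channel para (log2 1.17, adjusted p = 0.0117) and the RNA-binding protein elav (log2 1.62, adjusted p = 0.00206).

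Nrg was the pan-neuronal gene that was higher in legs. This adhesion molecule of the L1 family, which epithelia and glia also make, was at 125, 125 and 131 CPM in head TRAP and 217, 222 and 165 CPM in leg TRAP (log2 fold change -0.67, SE 0.19, adjusted p = 0.0274). All leg samples lay above all head samples, but with library size alone its log2 fold change was 0.13, and the call was lost without head TRAP 1, head TRAP 2, leg TRAP 1 or leg TRAP 2. The stathmin gene stai, a tubulin-binding protein, was at 419.6, 304 and 210.0 CPM in head TRAP and 156, 174 and 162 CPM in leg TRAP (log2 0.93, adjusted p = 0.0226), and lost its call when any 1 leg TRAP sample was left out. Rbp9, an ELAV-family RNA-binding protein, was at 195, 154 and 263 CPM in head TRAP and 203, 244 and 313 CPM in leg TRAP, and its tissues overlapped (log2 -0.31, adjusted p = 0.355; 0.50 with library size alone).

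The machinery of transmitter release had the same pattern. Of 41 genes of the synaptic vesicle cycle and release, 35 were higher in heads and 1 in legs (median log2 2.09). These counts include stnA and stnB, which lie at the same coordinates and had equal counts. The share of counts of the whole list was 1.28, 0.968 and 0.497% in head TRAP and 0.144 to 0.160% in leg TRAP, and 0.153% in each leg control. The complexin gene cpx, a clamp on vesicle fusion, was at 1458, 844 and 388 CPM in head TRAP and 79.1, 137 and 118 CPM in leg TRAP (log2 fold change 3.01, SE 0.45, adjusted p = 0.00126). The plasma membrane SNARE Snap25 was at 1044, 585 and 205 CPM in head TRAP and 67.7, 88.0 and 66.5 CPM in leg TRAP (log2 fold change 3.05, SE 0.49, adjusted p = 0.00197). For both genes the lowest head value was above every leg value. The calcium sensor Syt1 had a mean of 288 CPM in head TRAP and 18.5 CPM in leg TRAP (log2 3.96, adjusted p = 0.000377). Snap29, which acts in membrane fusion in many cell types, was the member higher in legs (log2 -1.21, adjusted p = 0.00295; not called with library size alone).

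Genes of transmitters other than glutamate were mostly higher in heads. Gad1, which makes GABA, was at 975, 599 and 111 CPM in head TRAP and 5.54, 2.39 and 7.20 CPM in leg TRAP (log2 fold change 6.80, SE 0.81, adjusted p = 0.000557). Head TRAP 3 held much less Gad1 than the other head samples and still lay above all leg samples. Head controls held 3.02, 0.976 and 0.604 CPM of Gad1 and leg controls 0.245 and 0.0147 CPM, so leg TRAP lay above leg controls for this gene without passing the test (log2 5.27, adjusted p = 0.0792). Of 9 GABAergic markers, 7 were higher in heads and none in legs, among them the receptor subunits Rdl (log2 2.44, adjusted p = 0.000400) and Lcch3 (log2 5.62, adjusted p = 0.000404). The acetylcholine-synthesising enzyme ChAT was at 165, 117 and 56.6 CPM in head TRAP and 8.86, 15.8 and 8.57 CPM in leg TRAP (log2 fold change 3.35, SE 0.41, adjusted p = 0.000626). Head TRAP samples all lay above leg TRAP samples, and the leg TRAP values of ChAT overlapped those of the leg controls, at 14.54 and 15.7 CPM. All 4 cholinergic markers were higher in heads (median log2 2.71), including acetylcholinesterase Ace (log2 2.18) and the choline transporter CG7708 (log2 2.79). ChAT and VAChT overlap in the genome and may share reads.

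Among monoamine genes, Vmat, the vesicular monoamine transporter, was at 462, 281 and 105 CPM in head TRAP and 104.1, 101 and 88.3 CPM in leg TRAP and was higher in heads (log2 1.53, adjusted p = 0.0240), with head TRAP 3 just above the legs, and lost its call when head TRAP 1 or any leg TRAP sample was left out. Tyrosine hydroxylase ple, which makes dopamine precursors in neurons and in tanning epidermis, was at 952, 878 and 949 CPM in head TRAP and 1262, 1461 and 1266 CPM in leg TRAP. Every leg sample was above every head sample, but the test was not passed (log2 -0.52, adjusted p = 0.0564; 0.27 with library size alone). Of the 10 monoaminergic markers, 5 were higher in heads and none in legs.

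Receptor and ion channel genes were mostly higher in heads. Of 10 nicotinic acetylcholine receptors, 9 were higher in heads, with a median log2 fold change of 4.92. The subunit gene nAChRbeta1 was at 136, 84.6 and 21.9 CPM in head TRAP and 1.92, 0.389 and 0.341 CPM in leg TRAP (log2 fold change 6.53, SE 0.88, adjusted p = 0.000877). The subunit gene nAChRalpha3 had a much smaller difference, with 30.9, 27.4 and 19.0 CPM in head TRAP and 15.7, 10.9 and 10.8 CPM in leg TRAP (log2 1.05, adjusted p = 0.0176). The tissues did not overlap for either subunit, and the nAChRalpha3 call was lost without leg TRAP 2 or leg TRAP 3. Of 28 voltage-gated and potassium channels, 21 were higher in heads and none in legs (median log2 1.87). The Shaker potassium channel Sh was at 113, 108 and 100.5 CPM in head TRAP and 40.4, 32.2 and 22.4 CPM in leg TRAP (log2 fold change 1.76, SE 0.24, adjusted p = 0.000957), which is again a separation without overlap.

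**Figure D3:**
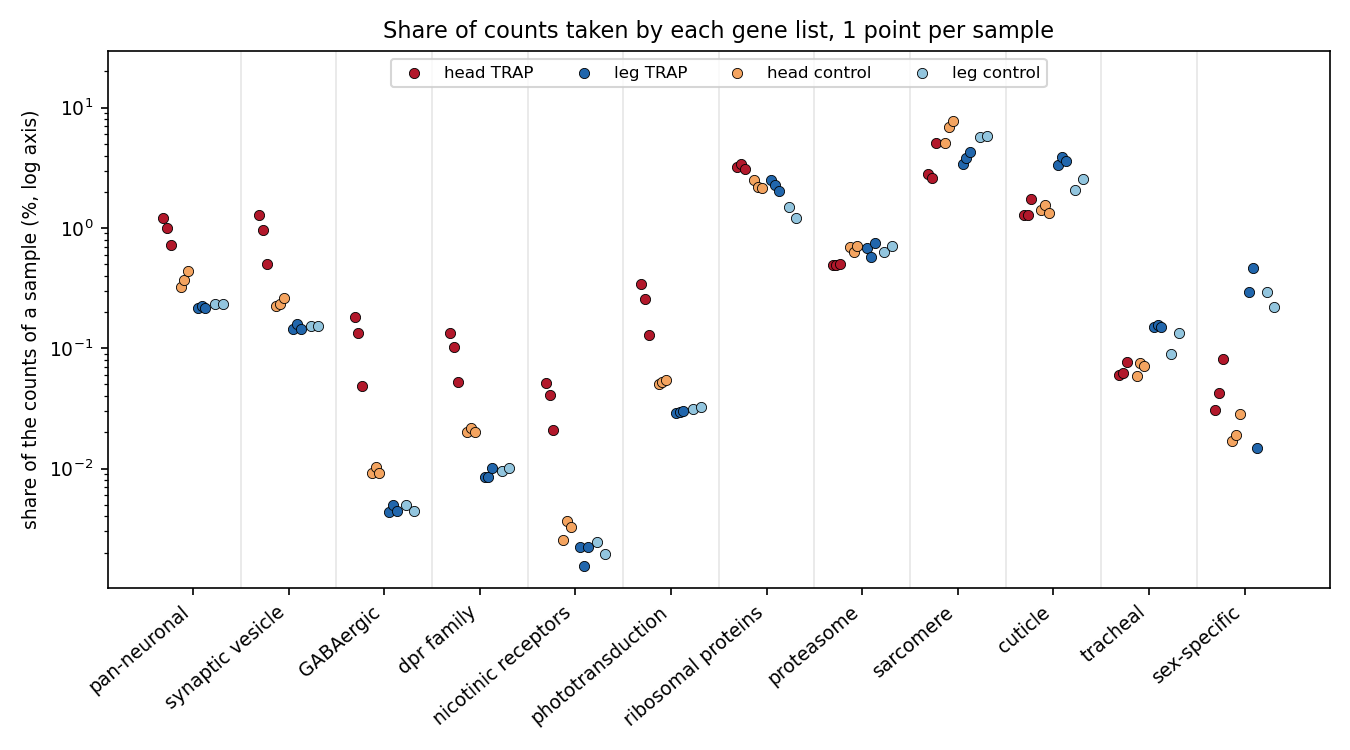
Share of each sample's counts taken by 12 gene lists (vertical, %, log axis), 1 point per sample of head TRAP, head control, leg TRAP and leg control. Pan-neuronal and synaptic vesicle genes took 0.721 to 1.21% and 0.497 to 1.28% of the counts in head TRAP and about the same share in leg TRAP as in leg controls, whereas proteasome, cuticle and tracheal genes took a larger share in leg TRAP than in head TRAP, and 1 leg TRAP sample was low in sex-specific transcripts.

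Neuropeptide genes gave 5 of the 10 largest fitted differences toward heads. Of 40 neuropeptide precursors, 24 were higher in heads and 3 in legs. The median log2 fold change was 5.19, or 4.17 with the 9 genes that had no count in any leg TRAP library set to the level of 3 counts. Corazonin, Crz, was at 84.0, 63.9 and 28.5 CPM in head TRAP and had no count in any leg TRAP library, which makes it at least 1033-fold higher in heads. The same holds for myoinhibitory peptide Mip at 57.5, 45.4 and 13.6 CPM (at least 683-fold), natalisin at 36.5, 25.3 and 11.3 CPM (at least 429-fold), and the insulin-like peptides Ilp3 at 36.3, 10.5 and 5.97 CPM (at least 309-fold) and Ilp2 at 20.4, 9.02 and 7.16 CPM (at least 214-fold). These peptides are made by small groups of neurons, and head controls held at most 1.29 CPM of any of the 5. The bounds are against 3 counts in a leg library, 0.0569 CPM.

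The 3 neuropeptide precursors higher in legs were Nplp2, Nplp3 and CNMa (log2 -1.25, adjusted p = 0.0172). Nplp3 was at 17409.6, 17859 and 15892 CPM in head TRAP and 49267, 66414 and 54813 CPM in leg TRAP and was higher in legs (log2 fold change -1.74, SE 0.22, adjusted p = 0.000709). Nplp2 was at 1362, 879 and 926 CPM in head TRAP and 3167, 2792 and 3946 CPM in leg TRAP and was also higher in legs (log2 fold change -1.65, SE 0.25, adjusted p = 0.00137). All leg samples of both genes lay above all head samples. Both were abundant in the controls of both tissues, with 37489.9, 33351 and 40261 CPM in head controls and 38634 and 48571 CPM in leg controls for Nplp3. The ion transport peptide gene ITP was at 229.6, 146 and 130.3 CPM in head TRAP and 88.8, 96.3 and 91.95 CPM in leg TRAP and was higher in heads (log2 0.87, adjusted p = 0.0228), a call lost when any leg TRAP sample was left out.

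Cell-surface recognition genes were higher in heads with few exceptions. All 21 members of the dpr family passed the test in that direction (median log2 3.21), and 20 to 21 did so when a library was left out. The member dpr7 was at 132, 74.6 and 38.0 CPM in head TRAP and 23.5, 23.7 and 28.8 CPM in leg TRAP (log2 1.69, adjusted p = 0.00996), and dpr12 was at 102, 69.8 and 26.3 CPM in head TRAP and 8.76, 2.23 and 10.4 CPM in leg TRAP (log2 3.21, adjusted p = 0.00420). Neither gene overlapped between the tissues. Of the 10 members of the DIP family, 8 were higher in heads. DIP-zeta had 1844 counts over the head TRAP libraries and 1 count over the leg TRAP libraries, a ratio of 2419 per scaled count with a 95% exact counting interval of 434 to 95604. DIP-beta was at 20.7, 13.5 and 4.93 CPM in head TRAP and 0.266, 0.0169 and 0 CPM in leg TRAP, DIP-theta at 31.1, 21.1 and 9.93 CPM in head TRAP and 2.81, 3.76 and 3.27 CPM in leg TRAP, and DIP-alpha at 6.92, 7.49 and 10.6 CPM in head TRAP and 0.626, 0.643 and 0.233 CPM in leg TRAP. For these members every head value was above every leg value. DIP-eta (log2 0.62, adjusted p = 0.151) and DIP-iota (log2 -0.58, adjusted p = 0.784; 0.22 with library size alone) were not called.

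In the axon guidance list, 36 of 56 genes were higher in heads and 1, Nrg, in legs (median log2 1.91). The beaten path family is named for a protein that lets motor axons leave their bundle. Its member beat-Ic was at 27.9, 16.9 and 6.47 CPM in head TRAP with no count in leg TRAP, at least 300-fold higher in heads. In head controls beat-Ic was at 1.87, 1.68 and 1.32 CPM, above the leg controls without a count (adjusted p = 0.00345).

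Genes of axonal transport, microtubules and RNA binding differed less between the tissues. Of 27 genes of kinesin and dynein transport, 7 were higher in heads (25.9%) and 1 in legs (3.70%), against 18.6% and 14.0% over all genes. Their median log2 was 0.39, close to the 0.44 of all genes. The kinesin-3 motor unc-104, which carries synaptic vesicle precursors, was at 717, 570.1 and 188 CPM in head TRAP and 87.8, 105 and 87.8 CPM in leg TRAP (log2 fold change 2.39, SE 0.42, adjusted p = 0.00279). The dynein light chain ctp was at 700.4, 519 and 335 CPM in head TRAP and 361, 410.3 and 408 CPM in leg TRAP. Its tissues overlapped and it was not called (log2 0.40, adjusted p = 0.259). Of 18 neuronal microtubule proteins, 6 were higher in heads (33.3%) and 3 in legs (16.7%, near the 14.0% over all genes). Those higher in legs were tau (log2 -0.80, adjusted p = 0.0142; not called without head TRAP 2 or leg TRAP 2), betaTub97EF (log2 -1.29, adjusted p = 0.00160) and alphaTub85E (log2 -1.71, adjusted p = 0.00197). Among 27 axonal RNA-binding proteins, 12 were higher in heads (44.4%) and none in legs.

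Tctp, a translationally controlled protein linked to growth, was at 334, 272 and 375 CPM in head TRAP and 556, 524 and 569 CPM in leg TRAP and was higher in legs (log2 fold change -0.75, SE 0.20, adjusted p = 0.0187). All leg samples lay above all head samples, but its log2 fold change was 0.05 with library size alone, and the call was lost without head TRAP 2, leg TRAP 1 or leg TRAP 3. Head controls held 475, 429.9 and 473 CPM of Tctp and leg controls 391 and 350.2 CPM, a difference that did not pass the test (control log2 0.31, adjusted p = 0.369). The interaction for Tctp passed it (interaction log2 -1.06, SE 0.24, adjusted p = 0.0236), but not without leg control 1, leg control 2, head control 1, head control 3 or head TRAP 2. Tom7, a small subunit of the mitochondrial import pore, was at 642, 542 and 292 CPM in head TRAP and 543, 512 and 546 CPM in leg TRAP. Its tissues overlapped (log2 -0.12, adjusted p = 0.763), and its sign changed with relative log expression scaling (0.04), DESeq2 (0.05), TMM over the 6 TRAP samples (0.13), library size alone (0.64) and without head TRAP 3 (0.20). CG32267, annotated as Tom5, was at 87.8, 71.5 and 42.8 CPM in head TRAP and 55.3, 59.4 and 53.0 CPM in leg TRAP and also overlapped (log2 0.27, adjusted p = 0.442).

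Cytosolic ribosomal protein genes took a larger share of counts in heads than in legs, and their direction after scaling depended on the method. Over both subunits, 3 of 91 genes were higher in head TRAP and 19 in leg TRAP, with a median log2 fold change of -0.40. The 3 were RpL10Ab and 2 paralogs with no count in any leg TRAP library and a mean under 1 CPM in head TRAP, RpL37b and RpL22-like. With library size alone the medians were positive, 0.40 for cytosolic large-subunit ribosomal proteins and 0.36 for cytosolic small-subunit ribosomal proteins, against negative medians in the main scaling. As a share of counts the ribosomal protein genes took 3.21, 3.40 and 3.10% in head TRAP and 2.51, 2.30 and 2.05% in leg TRAP. Of the large-subunit genes 13 were higher in legs, but 0 were without head TRAP 2 or leg TRAP 1, 3 without leg TRAP 2, 5 without leg TRAP 3 and 6 without head TRAP 3. In controls the median was 0.46, with 9 genes higher in heads (1.64% over all genes) and 0 in legs (1.36%), while the interaction had a median of -0.88 with 33 genes whose excess of TRAP over control was larger in legs (4.31% over all genes) and none larger in heads (2.56%). Of the 20 large-subunit genes among these, 0 to 3 were called when head TRAP 2, leg TRAP 1, leg TRAP 2 or any 1 of the controls was left out, 4 with relative log expression scaling and 0 with library size alone. RpS3A was at 659.7, 599 and 575 CPM in head TRAP and 963, 870.3 and 966 CPM in leg TRAP (log2 -0.61, adjusted p = 0.0313; 0.18 with library size alone) and kept its call only when head TRAP 1 was left out. RpS25 was at 863, 781 and 753 CPM in head TRAP and 896, 795 and 705 CPM in leg TRAP, with overlapping tissues (log2 0.00, adjusted p = 0.997), while its head controls, at 926, 775 and 759 CPM, were above its leg controls, at 503 and 392 CPM (control log2 0.87, adjusted p = 0.0312).

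Translation factors were more often higher in legs than in heads with the main scaling, and few nuclear genes of oxidative phosphorylation were called. Of 37 translation factors, 4 were higher in heads (10.8%) and 13 in legs (35.1%), against 18.6% and 14.0% over all genes. Their median log2 was -0.40, and 0.39 with library size alone. Without head TRAP 2 the translation factors higher in legs were 5, and without leg TRAP 1 they were 8. The initiation factor eIF4B had a mean of 8.44 CPM in head TRAP and 99.5 CPM in leg TRAP (log2 -3.56, adjusted p = 0.000225). Nuclear oxidative phosphorylation genes had 0 members higher in heads and 5 of 69 higher in legs (7.25%, against 14.0% over all genes, median log2 -0.27, 0.49 with library size alone). That count ranged from 0 to 16 with 1 library left out, with 16 without head TRAP 1, 0 without head TRAP 2 or leg TRAP 3, and 1 without head TRAP 3, leg TRAP 1 or leg TRAP 2. ATPsynC, a subunit of the ATP synthase ring, was at 4978, 3516 and 3811 CPM in head TRAP and 7066, 7180.1 and 8310.3 CPM in leg TRAP (log2 -0.87, adjusted p = 0.0149). It lost its call without head TRAP 2 and without leg TRAP 3. The elongation factor eEF1alpha1 was at 1744, 1659 and 1875 CPM in head TRAP and 2430.3, 2179 and 2363 CPM in leg TRAP and was not called (log2 -0.40, adjusted p = 0.119; 0.40 with library size alone).

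Called genes of the head and the eye were mostly higher in heads. Of 16 head and eye selectors, 5 were higher in heads (18.6% over all genes), none in legs and 11 were not called. The Pax6 gene toy had means of 33.5 CPM in head TRAP and 0.118 CPM in leg TRAP (log2 8.15, adjusted p = 0.000382). Of 37 genes of phototransduction and photoreceptors, 25 were higher in heads and 2 in legs (median log2 3.73). The visual G protein subunit Ggamma30A was at 1707, 977 and 244 CPM in head TRAP and 22.4, 21.5 and 28.7 CPM in leg TRAP (log2 fold change 5.33, SE 0.63, adjusted p = 0.000534), and the corneal lens gene retinin was at 33.7, 19.0 and 3.09 CPM in head TRAP with no count in leg TRAP, at least 327-fold higher. The tissues were separate for both genes, and head controls held retinin too, at 6.81, 4.39 and 1.87 CPM. The major rhodopsin ninaE had means of 48.4 and 0.289 CPM (log2 7.39, adjusted p = 0.000490).

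The Hox genes, which set segment identity, differed by gene. Dfd, an anterior gene, was at 13.9, 20.1 and 11.7 CPM in head TRAP and 0.512, 0 and 0.0155 CPM in leg TRAP (log2 fold change 6.47, SE 1.16, adjusted p = 0.00318). The gene pb, which acts in the mouthparts, was at 10.5, 11.6 and 9.96 CPM in head TRAP and 0.512, 0 and 0 CPM in leg TRAP (log2 5.99, adjusted p = 0.00933), and lab was at 0.519, 1.60 and 2.36 CPM in head TRAP with no count in leg TRAP (at least 26.2-fold). These 3 of the 8 Hox genes were higher in heads and did not overlap between the tissues. The genes of the thorax and its borders, Antp (log2 0.00, adjusted p = 0.997), Ubx (log2 -0.43, adjusted p = 0.191; 0.40 with library size alone) and Scr (log2 0.21, adjusted p = 0.448) were not called, nor were abd-A and Abd-B. Antp was at 16.7, 25.1 and 37.3 CPM in head TRAP and 25.5, 25.1 and 28.4 CPM in leg TRAP and Ubx was at 17.8, 21.8 and 31.4 CPM in head TRAP and 33.2, 31.0 and 31.1 CPM in leg TRAP, so both genes were detected in every head sample. The appendage gene Dll was at 52.9, 55.7 and 81.1 CPM in head TRAP and 99.4, 128 and 97.7 CPM in leg TRAP and was higher in legs (log2 -0.78, adjusted p = 0.0293; 0.04 with library size alone), a call kept only when head TRAP 3 was left out. The homeobox gene hth, used in proximal appendages and in the eye and antenna, was at 148, 115 and 108 CPM in head TRAP and 48.1, 47.4 and 48.8 CPM in leg TRAP and was higher in heads (log2 1.37, adjusted p = 0.00114).

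Transcription factors of neurons were more often higher in heads than in legs. Of 26 optic lobe neuron transcription factors, 14 were higher in heads and 1 in legs (18.6% and 14.0% over all genes), and of 14 motor neuron transcription factors, 8 were higher in heads and 1 in legs. In both lists the gene higher in legs was vvl, a POU-domain factor also used in trachea (log2 -0.85, adjusted p = 0.0119; not called without head TRAP 2). The homeodomain factor pros was at 243, 165 and 103 CPM in head TRAP and 36.3, 36.5 and 25.3 CPM in leg TRAP (log2 fold change 2.38, SE 0.32, adjusted p = 0.000881). The sex determination gene fru, which shapes male neural circuits, was at 21.4, 36.6 and 50.5 CPM in head TRAP and 6.22, 10.6 and 8.01 CPM in leg TRAP (log2 fold change 2.12, SE 0.35, adjusted p = 0.00199). The tissues did not overlap for pros or fru, and head TRAP 3 held the lowest pros level and the highest fru level of the head samples.

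Proteasome genes were higher in legs almost throughout. Of 32 proteasome subunits, 30 were higher in leg TRAP and 0 in head TRAP (median log2 -1.18). The median kept its sign with library size alone, at -0.38, where 10 were called. With each library left out in turn 27 to 30 proteasome subunits were higher in legs. The core subunit Prosbeta3 was at 223, 182 and 187 CPM in head TRAP and 657, 482 and 708 CPM in leg TRAP (log2 fold change -1.64, SE 0.22, adjusted p = 0.000828), Prosbeta5 at 295, 250.02 and 238 CPM in head TRAP and 688, 513 and 756 CPM in leg TRAP (log2 fold change -1.32, SE 0.22, adjusted p = 0.00206), and Prosalpha3 at 246, 208 and 204 CPM in head TRAP and 507, 405 and 552 CPM in leg TRAP (log2 fold change -1.15, SE 0.20, adjusted p = 0.00291). Every leg sample was above every head sample for these 3 subunits. All proteasome subunits together took 0.490 to 0.499% of the counts in head TRAP and 0.576 to 0.752% in leg TRAP, with 0.635 to 0.709% in head controls and 0.632 to 0.706% in leg controls. The median log2 difference of the subunits between head and leg controls was -0.29.

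Part of the cuticle, tracheal and immune genes were also higher in legs. Acp1, an adult cuticle protein gene, was at 5062, 3825 and 5789 CPM in head TRAP and 24101, 30146 and 27086 CPM in leg TRAP (log2 fold change -2.47, SE 0.24, adjusted p = 0.000338). The head and leg values were far apart, and in controls Acp1 differed in the same direction (control log2 -1.54, adjusted p = 0.00640). Of 95 cuticle proteins, 26 were higher in legs (27.4%) and 12 in heads (12.6%), against 14.0% and 18.6% over all genes. Their median log2 fold change was 0.42 and 0.00 with genes without counts in a tissue set to their bound, and the number higher in heads was 20 without head TRAP 1, 5 without head TRAP 2, 4 without head TRAP 3 and 7 without leg TRAP 2. Cpr49Ae was at 611, 524 and 556 CPM in head TRAP and 3610.3, 3625 and 2965 CPM in leg TRAP (log2 fold change -2.59, SE 0.21, adjusted p = 0.000265), and Cpr65Au at 2304, 2431 and 2224 CPM in head TRAP and 4749, 3966 and 5149 CPM in leg TRAP (log2 -0.99, adjusted p = 0.00555). Cpr57A of this list and Obp57d of the odorant-binding list lie at the same coordinates and had equal counts.

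Of 7 tracheal markers, 3 were higher in legs (median log2 -0.50, 0.31 with library size alone), all 3 of them genes of chitin handling that epidermis also uses. Gasp, a chitin-binding protein, was at 205, 166 and 194 CPM in head TRAP and 844, 766 and 948 CPM in leg TRAP (log2 fold change -2.18, SE 0.20, adjusted p = 0.000308), and the chitin deacetylases verm (log2 -2.08, adjusted p = 0.000338) and serp (log2 -1.82, adjusted p = 0.000370) followed it. For Gasp no head sample reached a leg sample, and the control difference had the same sign (control log2 -1.04, adjusted p = 0.0126). Of 37 antimicrobial and immune-induced peptides, 20 were higher in legs and 1 in heads (median log2 -1.15). The immune-induced gene IM14 was at 135, 149.8 and 196 CPM in head TRAP and 542, 548 and 622 CPM in leg TRAP (log2 fold change -1.83, SE 0.21, adjusted p = 0.000501). Its controls were at 377, 348 and 261 CPM in head controls and 345 and 274 CPM in leg controls and did not differ by the test (control log2 0.08, adjusted p = 0.901). Drosomycin, Drs, was at 579, 518 and 355 CPM in head TRAP and 757, 724 and 534 CPM in leg TRAP, with overlapping tissues (log2 -0.47, adjusted p = 0.151; 0.30 with library size alone), and Defensin, Def, was the member higher in heads (log2 2.87, adjusted p = 0.000647).

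Genes of other cell types gave the following values beside the neuronal and leg groups, and their part in those results was not tested. Of 40 sarcomere and muscle contraction genes, 16 were higher in legs and 2 in heads (median log2 -0.59, 0.23 with library size alone). They took 2.61 to 5.09% of counts in head TRAP, 3.42 to 4.31% in leg TRAP, 5.10 to 7.77% in head controls and 5.74 to 5.76% in leg controls. The muscle actin Act79B was at 3959.8, 2746 and 5155 CPM in head TRAP and 8592, 9508 and 12058 CPM in leg TRAP (log2 fold change -1.35, SE 0.27, adjusted p = 0.00571), and Mef2, the muscle-determining transcription factor, at 50.5, 49.8 and 53.8 CPM in head TRAP and 37.5, 42.9 and 37.5 CPM in leg TRAP (log2 0.39, adjusted p = 0.120). Act79B was lower in every TRAP sample than in every control. Of 25 glial markers 4 were higher in heads and 5 in legs, near the 18.6% and 14.0% over all genes. The glutamate transporter Eaat1 was 1 of those higher in legs (log2 -1.02, adjusted p = 0.00450), and with library size alone none was called higher in legs. Of 29 fat body and haemolymph genes 11 were higher in legs and 3 in heads (median log2 -0.55, 0.22 with library size alone), including transferrin Tsf1 (log2 -1.20, adjusted p = 0.00262), ferritin Fer1HCH (log2 -1.07, adjusted p = 0.00452) and Adh (log2 -0.93, adjusted p = 0.0117; not called without head TRAP 2), all higher in legs. The actin gene Act42A was at 51.0, 40.8 and 70.0 CPM in head TRAP and 74.6, 63.8 and 70.3 CPM in leg TRAP and was not called (log2 -0.37, adjusted p = 0.232; 0.45 with library size alone).

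Genes of the sense organs were called in both directions. Of 32 chemoreceptors, 11 were higher in heads and 4 in legs, and of 24 mechanosensory and TRP channels, 2 and 3, against 18.6% and 14.0% over all genes. With library size alone no member of these 2 lists was called higher in legs, and with a library left out the mechanosensory and TRP channels higher in heads ranged from 1 to 4. The taste-neuron channel subunits ppk23 and ppk29, which act in pheromone sensing on legs and mouthparts, were at 336, 362 and 474 CPM in head TRAP and 672, 1012 and 627 CPM in leg TRAP (log2 -0.98, adjusted p = 0.0159) and at 19.2, 15.5 and 23.4 CPM in head TRAP and 40.4, 31.6 and 67.0 CPM in leg TRAP (log2 -1.26, adjusted p = 0.0123). Leg samples were above head samples for both, although head controls held more ppk29 than leg controls, with 70.3, 75.7 and 74.3 CPM in head controls and 50.8 and 51.1 CPM in leg controls (interaction log2 -1.79, adjusted p = 0.0172; lost without either leg control). The ppk23 call was lost without leg TRAP 2. The odorant co-receptor Orco, an antennal gene, had means of 26.6 CPM in head TRAP and 0.484 CPM in leg TRAP (log2 5.80, adjusted p = 0.00197). Of 28 odorant-binding proteins, 9 were higher in heads and 11 in legs (18.6% and 14.0% over all genes). Obp57c (log2 -1.47, adjusted p = 0.000949) and Obp57a (log2 -1.86, adjusted p = 0.00108), of the taste bristles, were higher in legs, and the antennal Obp83a was at 148, 93.8 and 127 CPM in head TRAP and 9.18, 10.8 and 6.56 CPM in leg TRAP and was higher in heads (log2 3.80, adjusted p = 0.000225), with more still in head controls, at 342, 453 and 439 CPM.

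**Figure D4:**
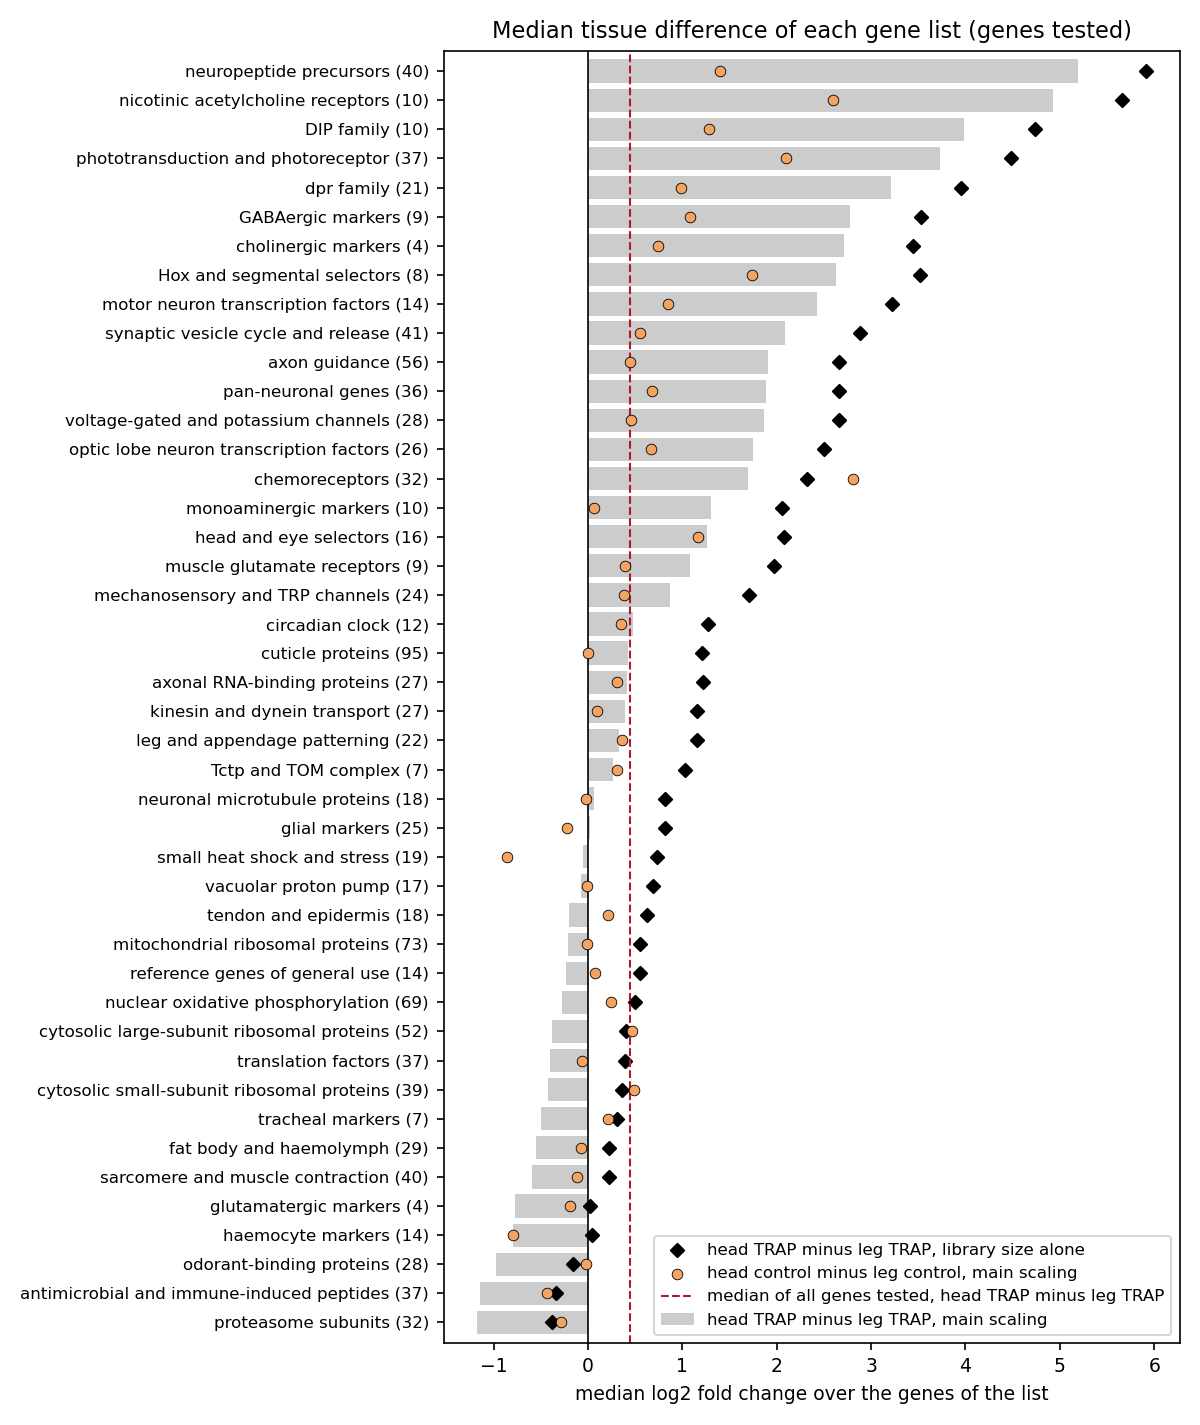
Median log2 fold change over the genes of each list (horizontal axis; list sizes in parentheses) for head over leg TRAP with the main scaling (bars) and with library size alone (diamonds), and for head over leg controls (circles), with the median of all genes tested, 0.44, as a dashed line. Pan-neuronal, synaptic vesicle, neuropeptide, nicotinic receptor, DIP and dpr lists lay to the right of 0 under both scalings, proteasome, immune-induced and odorant-binding genes lay to the left under both, and glutamatergic, ribosomal, oxidative phosphorylation and sarcomere genes changed side.

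The 10 largest differences toward legs among called genes of at least 10 CPM whose tissues did not overlap were mostly female-specific or ovarian. Yp1, Yp2 and Yp3 had log2 fold changes of -10.80, -11.08 and -10.61 (adjusted p = 0.00150, 0.00126 and 0.00132), and CR45601, antisense to Yp1 and possibly holding its reads, had -12.42 (adjusted p = 0.00129). The female pheromone enzymes eloF, at 0.113, 0.411 and 0.151 CPM in head TRAP and 619, 396 and 6.70 CPM in leg TRAP (log2 -10.55, adjusted p = 0.00124), and Fad2, at 0.0902, 0.434 and 2.12 CPM in head TRAP and 845, 241 and 10.7 CPM in leg TRAP (log2 -8.68, adjusted p = 0.00379), had the same order of samples, with leg TRAP 3 far below the other legs. The vitelline membrane gene Vm34Ca (log2 -7.82, adjusted p = 0.00324), the eggshell gene Cp7Fb (log2 -7.72, adjusted p = 0.00495), the germline thioredoxin dhd (log2 -7.42, adjusted p = 0.0132) and CG14645 (log2 -7.84, adjusted p = 0.0154) completed the 10. The chorion genes Cp15 (log2 -9.25, adjusted p = 0.0145) and Cp36 (log2 -8.74, adjusted p = 0.0133) had differences of this size but overlapped between the tissues. The calls of dhd and CG14645 were lost without leg TRAP 1, where CG14645 was at 194, 1.32 and 1.24 CPM over the 3 leg TRAP samples. With a robust dispersion fit the calls of Fad2, Vm34Ca, Cp7Fb, dhd, CG14645, Cp15 and Cp36 were lost. All of these but Vm34Ca also lost the call with a replicate block. At an adjusted p under 0.01 dhd, CG14645, Cp15 and Cp36 were not called. Heads came from males only, so sex and tissue cannot be told apart for these genes. The male RNAs roX1 (log2 2.28, adjusted p = 0.0628) and roX2 (log2 2.31, adjusted p = 0.149) were above legs in all head samples without passing the test.

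The 10 largest differences toward heads by the same rule were Crz, CG12239, Mip, CG44837, natalisin, retinin, Ilp3, beat-Ic, CG6123 and Ilp2. CG12239, which carries no name in the files, was at 712, 482 and 181 CPM in head TRAP and 0.0759, 0 and 0 CPM in leg TRAP (log2 fold change 14.14, SE 0.95, adjusted p = 0.000225). CG44837 was at 47.3, 30.1 and 13.8 CPM in head TRAP without a count in leg TRAP (at least 535-fold), and CG6123 had 5668 counts in head TRAP and 1 in leg TRAP (ratio 7436, 95% exact counting interval 1334 to 293758). In each of these genes head TRAP 1 was the highest and head TRAP 3 the lowest head sample. The heat shock gene Hsp70Bb, which has near-identical copies among which reads may be split, was at 1933, 1419 and 535 CPM in head TRAP and 78.9, 80.5 and 88.1 CPM in leg TRAP (log2 3.97, adjusted p = 0.000395).

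Tissue differences were also present between the controls, which had no driver and only 3 and 2 samples. Between head and leg controls 274 genes were higher in heads (1.64% of 16672) and 226 in legs (1.36%). Of the 3095 genes higher in head TRAP, 211 were also called higher in head controls, and 2654 (85.8%) had the same sign there. In the controls 853 of the 3095 had no count in a tissue, so their sign there is that of a fitted value. The median log2 difference of these 3095 genes, which were chosen for their TRAP values, was 6.11 in TRAP and 1.18 in controls, or 3.21 and 0.92 with genes lacking counts in a tissue set to their bound. Of the 2324 genes higher in leg TRAP, 202 were also called higher in leg controls, and 1972 (84.9%) had the same sign there. The share with the same sign over all genes was not computed, so 85.8% and 84.9% stand without a background. The medians of these 2324 genes were -1.15 in TRAP and -0.33 in controls. The counts of called controls fell to 40 higher in heads and 29 higher in legs without leg control 2, and to 82 and 127 without leg control 1. They were 136 and 91 without head control 1, 122 and 92 without head control 2, 134 and 79 without head control 3, and 417 and 372 without head TRAP 3, which enters through the shared estimate of spread and scaling.

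The excess of TRAP over control differed between the tissues in both directions. It was larger in heads for 426 genes (2.56%) and larger in legs for 719 genes (4.31%), of which 400 and 645 were also called between head and leg TRAP in the same direction. The interaction contains that same TRAP difference, so this overlap was largely built in. Among the pan-neuronal genes 15 of 36 had a larger excess in heads and 0 in legs, among the genes of the synaptic vesicle cycle and release 15 and 0, among the neuropeptide precursors 12 and 1, and among the dpr family 7 and 0. In the other direction it was larger in legs for 15 proteasome subunits, 13 antimicrobial and immune-induced peptides, 12 odorant-binding proteins and 33 ribosomal protein genes. For the proteasome list the median log2 of TRAP over control was -0.94 in heads and -0.03 in legs. For odorant-binding proteins it was -1.22 and 0.12. By these medians both lists lay below control in head TRAP and near control in leg TRAP. The medians were -0.49 and 0.43 for the immune peptides and -0.09 and 0.78 for the ribosomal protein genes. The counts of genes with a larger excess rested on the few controls. Without leg control 2 the totals were 65 and 36, and 3 pan-neuronal genes, 4 neuropeptide precursors, 0 proteasome subunits and 3 antimicrobial and immune-induced peptides were called in these directions. Without leg control 1 the totals were 163 and 84, without head TRAP 2 they were 181 and 184, without head control 1, 2 and 3 they were 136 and 225, 209 and 323, and 222 and 331, without leg TRAP 1 they were 343 and 427, and without head TRAP 3 they were 818 and 933. With library size alone they were 1082 and 69, so that 94.0% of the calls were larger in heads against 37.2% with the main scaling, and with relative log expression scaling they were 538 and 365, or 59.6%.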

How the data were processed

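RNA bound by tagged ribosomes was recovered with anti-Flag beads, and polyadenylated RNA was amplified (SMART-Seq HT, Nextera XT) and sequenced, with each tissue in its own sequencing order. The deposited values are whole-number counts per gene that the authors made from their reads, with no normalization. The submitters' processing notes name Trim Galore, HISAT2 2.2.1, SAMtools 1.12 and the BDGP6 genome. The strand setting of the counting is not given in the sources used here, so genes that overlap another gene (8034 of 16942) are uncertain.

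Head and leg tables were joined by gene ID, and the 35 genes of the mitochondrial genome, which had no counts in heads, were left out. All genes counted at least once were tested with the edgeR 4.0.16 quasi-likelihood test in R 4.3.3, with Benjamini-Hochberg adjustment over all genes. Head TRAP against leg TRAP was fitted on those 6 samples, and the control contrast and the interaction on all 11. Total counts per sample were 29512310 to 82691879. A gene without counts was held to a floor of 3 counts, at most 0.0569 CPM in a leg TRAP and 0.0685 CPM in a head TRAP library. Intervals and floors cover counting error only.

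The alternatives were DESeq2 1.42.0, other scalings, filters and thresholds, a robust dispersion fit, a replicate block and leaving out each library. DESeq2 after a filter and the 10 CPM minimum were chosen after seeing the data. The code was tested on simulated counts, with changes set in genes of at least 10 CPM. A true log2 difference of 1 was called for 20% of the changed genes between the TRAP groups and 2% in the interaction. For a difference of 2 these were 95% and 67%. A gene that was not called may therefore still differ. Among the genes simulated without a change, 19 were called between the TRAP groups and 7 in the interaction, so a called gene may also be unchanged. The simulation changed 100 genes at each size, far fewer than were called in the data, so its rates may not carry over.

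The members and the 46 gene lists were chosen with earlier results of these data known. Named genes were the study's own and reagent genes, the 10 largest differences each way without overlap and with a mean of at least 10 CPM, the 3 members of each list with the most counts, the 5 largest interactions each way, the 5 pan-neuronal genes with the most leg TRAP counts, and all Hox, DIP, roX and yolk protein genes. Single list members named beside them (elav, Syt1, Snap29, CNMa, tau, betaTub97EF, alphaTub85E, eIF4B, toy, ninaE, vvl, Def and Orco) were chosen after their values were seen. One of the study's own genes is not reported here. Symbols of CG32267 and CG7708 were read from RefSeq.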

Additional observations from a re-analysis of the deposited data

Results flagged for a closer look

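The excess of TRAP over control differed between heads and legs in the test of the interaction for 426 genes in the direction of heads and 719 genes in the direction of legs. By gene, the interaction was 12.92 on the log2 scale for Crz and 11.40 for CG12239, fitted values that depend on the prior count, since both genes were at or near 0 in the legs and high in all head TRAP samples. Both kept the call in all fits that left out 1 library, except that CG12239 lost it without leg control 2. It was -2.60 for Obp83a, at 342, 453 and 439 CPM in head controls and 148, 93.8 and 127 CPM in head TRAP, with legs at 9.18, 10.8 and 6.56 CPM in TRAP.

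In other genes 1 or 2 libraries carried the interaction. It was 19.91 for CR43684, 15.44 for CG18628 and 13.72 for CG14635, of which CG18628 was at 0.564, 709.7 and 0.151 CPM in head TRAP and 86.4 and 1373 CPM in leg controls. CR43684 had 0, 12.5 and 0.151 CPM in head TRAP and 1.55 and 41.5 CPM in leg controls, and CG14635 had 0.135, 2.08 and 0.130 CPM and 7.47 and 17.21 CPM. In all 3 genes head TRAP 2 was the highest head TRAP library and leg control 2 the higher leg control. In the other direction the interaction was -12.12 for the chorion gene Cp38, at 145, 17.1 and 0.0776 CPM in leg TRAP, -9.32 for the eggshell gene Cp7Fb, at 85.3, 329 and 5.73 CPM, -11.35 for CG14645, at 194, 1.32 and 1.24 CPM, and -3.28 for CG16898, at 120.0, 13.1 and 53.5 CPM. Leg TRAP 3 was low in Cp38 and Cp7Fb, and leg TRAP 1 was the highest library for Cp38, CG14645 and CG16898.

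Genes of the mitochondrial genome, which the comparisons left out, took 0.756%, 0.631% and 0.908% of the counts in leg TRAP 1, 2 and 3, above the 0.440% and 0.356% of the leg controls. The head table held no counts for them.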

How the results depend on the processing

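Among the settings tried, the number of genes higher in heads was 6020 with library size alone, 1507 among genes with a count in every sample, 1382 when tested against a log2 difference of 1, 1435 among genes with a group mean of at least 10 CPM and 1094 at an adjusted p under 0.01. The number higher in legs was 561 with library size alone, 460 when tested against a log2 difference of 1 and 1332 at an adjusted p under 0.01. It was 2402 among genes with a count in every sample and 2431 among genes with a group mean of at least 10 CPM. Between controls the counts in heads and legs were 1192 and 607 with DESeq2, 779 and 112 with library size alone, 78 and 60 at an adjusted p under 0.01, and 356 in legs with the 10 CPM minimum. For the interaction the counts larger in heads and in legs were 1082 and 69 with library size alone, and 14 and 12 at an adjusted p under 0.01, with 1186 larger in heads by DESeq2, 1134 by DESeq2 after a filter, 365 larger in legs with relative log expression scaling and 1111 larger in legs with the 10 CPM minimum. With 1 library left out the ranges were 2027 to 3836 and 1614 to 2385 between TRAP samples, 40 to 417 and 29 to 372 between controls, and 65 to 818 and 36 to 933 for the interaction.

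The replicate numbers did not pair head and leg TRAP samples, since the correlation of deviations was -0.04 to 0.02 in the 3 same-numbered pairs and 1 of 3 head samples correlated best with its own number. Between head TRAP and head controls it was 0.076 to 0.289 in same-numbered pairs and -0.299 to 0.225 in the others. Between leg TRAP and leg controls the same-numbered pairs had 0.034 to 0.055. The interaction in the main fit did not use the numbers. With the replicate block 1352 genes were higher in heads and 1732 in legs, and 281 had a larger interaction in heads and 664 in legs. In that fit Antp was at -0.071 and DIP-iota at 0.59.

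Log2 values changed sign as follows. With library size alone Act42A was at 0.45, Tctp at 0.051, Tom7 at 0.64, RpL10 at 0.12, Drs at 0.30, Nrg at 0.13, RpS3A at 0.18, Ubx at 0.40, Dll at 0.042, ple at 0.27, eEF1alpha1 at 0.40, Rbp9 at 0.50 and DIP-iota at 0.22. Tom7 was at 0.052 with DESeq2 (0.054 after a filter), 0.042 with relative log expression scaling and 0.13 with TMM over the 6 TRAP samples. RpS25 and Antp were both at -0.011 when TMM left out ribosomal protein, sarcomere, cuticle and phototransduction genes. With 1 library left out Tom7 ranged from -0.31 to 0.20, RpS25 from -0.081 to 0.092, Antp from -0.28 to 0.28, DIP-iota from -1.16 to 0.55 and CG18628 from -2.92 to 9.12. The cause was not tested. Over all alternatives except an adjusted p under 0.01, 2100 TRAP differences of the named genes kept direction and side of the threshold. Of the other values 154 lost the call, 29 gained one and 30 changed sign. For the interaction these numbers were 466, 98, 11 and 0. At an adjusted p under 0.01, 27 named genes lost the call of the TRAP difference and 97 kept their side. For the interaction 21 lost the call at that threshold and 7 kept their side.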
